A study of Drosophila melanogaster with 53 samples.

Results

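The cytochrome P450 genes of Drosophila melanogaster were followed by RNA sequencing of whole adult males after a graded radiation exposure. The members were all genes whose symbol has the P450 form, Cyp with a family number, a subfamily letter and a gene number, and whose mean over all 53 libraries was at least 10 normalized counts. Of 84 matching genes among 15222 in the table, 79 passed this minimum, which 12475 genes passed in all. The ecdysone-synthesis P450s, such as sad and shd, carry other symbols and were therefore no members. By the BDGP6 annotation 34 members lie on chromosome arm 2R, 14 on X, 13 on 2L, 13 on 3R and 5 on 3L.

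Males were left at background radiation (control) or exposed, 2 days after eclosion, to 10 R, 1000 R, 5000 R, 10000 R or 20000 R (roentgen, a unit of exposure to X-rays and gamma rays). They were frozen 2, 10 or 20 days after exposure, and their messenger RNA was sequenced. Each of the 18 combinations of dose and day had 3 libraries, except the day 20 control, which had 2; within a group they are called a, b and c here. The title of the study poses the question of a threshold in the response to dose. The labels name no strain and do not say whether the libraries of a group came from separate cultures, so p-values measure the spread between these libraries, which may be technical. Age and time after exposure cannot be told apart in irradiated flies, since all were exposed at the same age; the control flies show age alone.

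P450s are haem enzymes that put an oxygen atom of molecular oxygen into a substrate. In insects the microsomal P450s take electrons from cytochrome P450 reductase, and the mitochondrial P450s take them from ferredoxin. Insect P450s oxidize plant toxins and insecticides, many in the midgut, Malpighian tubules and fat body, and others make or destroy ecdysone, make cuticular hydrocarbons in the oenocytes or take part in forming the cuticle. By family number the members fell into 38 of the CYP3 clan (Cyp6, Cyp9, Cyp28 and relatives, many of them xenobiotic enzymes), 28 of the CYP4 clan, 9 of the mitochondrial clan (Cyp12, Cyp49, Cyp301) and 4 of the CYP2 clan.

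Values are the deposited normalized counts, that is, read counts divided by 1 size factor per library; depth was 15.4 to 46.2 M reads in genes (M, 1e6), with a median of 23.3 M. Differences are given as log2(normalized count + 1) changes with their standard errors, which understates the change of low genes, and p-values are those of limma, adjusted by the Benjamini-Hochberg method over the 12475 genes. A member was called where its adjusted p was under 0.05. All dose comparisons of a day share the same control libraries.

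Many calls below depend on libraries that stand apart. In 6 libraries the number of genes above 0 was 11213 to 12229, against at least 12375 in the other 47. The day 2 libraries among them were b and c of 10 R. The day 10 library was 10 R c, and the day 20 libraries were 10 R c, 5000 R c and control b. The median P450 was lower in each of the 6 than in the libraries of its group that do not have few genes. Their summed share of all normalized counts was 0.133% to 1.37% in the 6 libraries, against 1.18% to 3.58% in the other 47. Each was compared with the libraries of its group that do not have few genes. For 10 R day 2 b, 10 R day 2 c and control day 20 b this was library a alone. The median member of 10 R day 2 b was lower by a log2 difference of -3.75, where the median of all genes was -0.54. In it 61 of 79 members were lower by more than 1 log2 unit, as were 42.9% of all genes. The median member's difference was -2.07 in 10 R day 2 c (all genes -0.34), -1.53 in 5000 R day 20 c (all genes -0.11), -0.76 in 10 R day 10 c (all genes -0.15), -0.75 in 10 R day 20 c (all genes -0.11) and -0.68 in control day 20 b (all genes -0.17). Between 3 and 17 members stood at 0 in these libraries, against 0 to 2 in the others. In these 6 libraries 7 accessory gland markers summed to 151 to 572 normalized counts, against 1377 to 18839 in the other 47. Acp26Aa was at 0 in 4 of the 6, Acp53Ea and Acp95EF in 3 each, and SP and Acp76A in 1 each. In the other 47, Acp53Ea was at 0 in 9 and Acp26Aa and Acp95EF in 3 each. The summed midgut markers (9 of 9 in the table) were 423587 to 785031 in the 6 libraries, against 268548 to 557587 in the others. The summed oenocyte markers (4 of 6 in the table) were 83447 to 136623 in the 6, against 50383 to 124373. Of these, eloF, a female elongase, was at 0 in all 6 and in 7 of the other 47. The part of these tissues in the low P450 values was not tested. In whole-fly RNA, fewer cells of a type and less RNA per cell cannot be told apart. Another 3 libraries stood apart in other genes: 10 R day 10 a and 10000 R day 10 c held over 10 times the median level of Yp1, a yolk protein gene of females, and 20000 R day 10 a held over 10 times the median level of His1 histone genes. Many of the results that rest on these libraries are given with and without them, but not all.

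**Figure D1:**
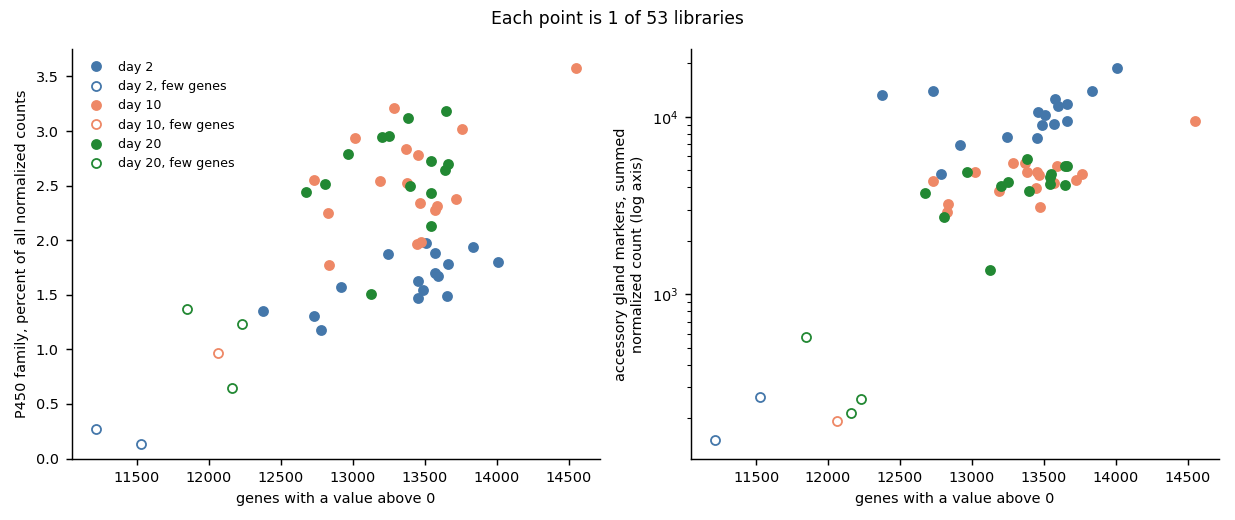
Summed P450 transcripts as percent of all normalized counts (left) and summed accessory gland markers (right, log axis) against the number of genes above 0, 1 point per library, coloured by day. The 6 hollow points are the libraries with few genes: they lie lowest in genes, and their P450 share is 0.133% to 1.37%, against 1.18% to 3.58% in the other 47 libraries.

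One transcript made up most of the family. Cyp4g1 (FBgn0010019), the oenocyte enzyme that completes the synthesis of cuticular hydrocarbons, averaged 237685 normalized counts per kb of coding length over the 53 libraries, 79.8% of the per-kb sum of the 78 members with a coding length (BDGP6 annotation). Over the 47 libraries without the few-gene ones, Cyp4g1 stood at 257211 ± 67722 per kb (SD), against 13945 ± 4083 for Cyp6g1, the next in order, which is known for resistance to DDT and neonicotinoids. By mean, the members after it were Cyp6d5 (7294 ± 1711), Cyp6w1 (5314 ± 2557), Cyp9f2 (3484 ± 817), Cyp6a2 (2359 ± 674), Cyp9b2 (2124 ± 498) and Cyp312a1 (2085 ± 527). Among these 6, each overlapped its neighbours in the order within 1 SD, so the order of neighbours is not resolved, and in controls of day 2 the mean of Cyp6w1 (2038 per kb) was below that of Cyp9f2 (2828). Cyp4g15, the relative of Cyp4g1 in the nervous system, stood at 865 ± 212 per kb. At the low end were Cyp6a19 with 10.2 per kb, Cyp4ac3 with 18.4 and Cyp4c3 with 25.4. The CYP4 clan summed to 413664 normalized counts and the CYP3 clan to 67673, against 6054 for the mitochondrial clan and 2174 for the CYP2 clan.

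**Figure D2:**
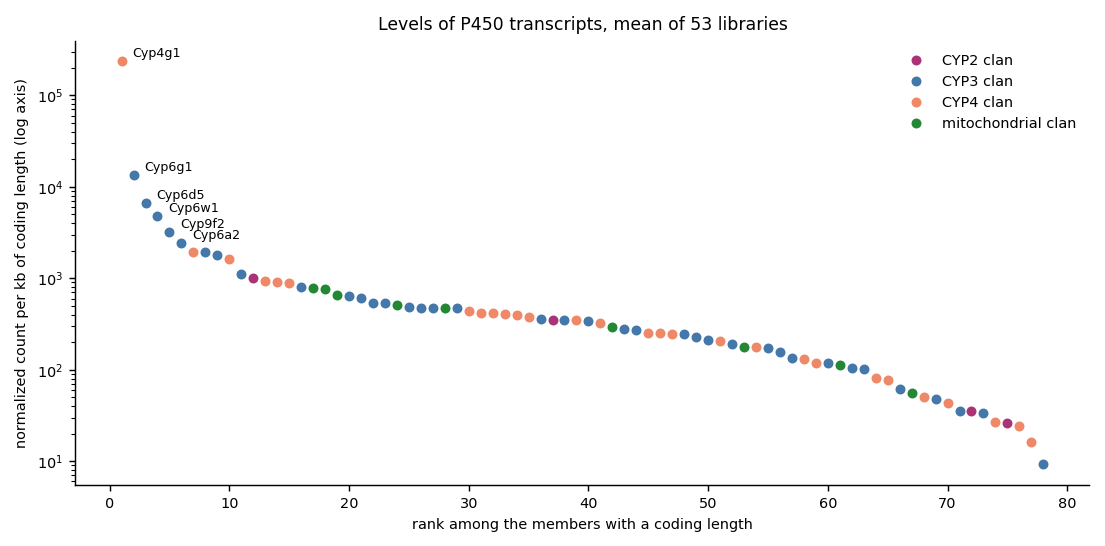
Mean normalized count per kb of coding length over 53 libraries (log axis) against rank, 1 point per member with a coding length, coloured by clan. Cyp4g1 at 237685 stands far above Cyp6g1 at 13452, and the other members spread down to 9.23.

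Among the 47 libraries the steadiest member was Cyp6u1, with a coefficient of variation of 13.2%, while Cyp6a19 (173%), Cyp28d2 (87.8%), Cyp4p2 (83.1%) and Cyp6a8 (75.2%) varied most. The variation of Cyp6a19 is led by 20000 R day 10 a at 160 and 10 R day 10 a at 101 normalized counts; both are among the 9 libraries that stand apart. By the BDGP6 annotation 39 members lie next to another matching gene; the matching genes form 16 such runs in all, 1 of them made up of genes under the minimum. Over 47 libraries, which share age and dose groups, log2 levels of neighbours were correlated at 0.85 for Cyp309a1 and Cyp309a2, at 0.75 to 0.95 within Cyp4ac1, Cyp4ac2 and Cyp4ac3, and at 0.62 to 0.81 within Cyp6g1, Cyp6g2 and Cyp6t3, against a median of 0.33 over all pairs of members. Not all runs were so alike. Within the 6 neighbours Cyp6a17, Cyp6a19, Cyp6a20, Cyp6a22, Cyp6a23 and Cyp6a9 the range was -0.11 to 0.84, with a median of 0.41. The medians were -0.26 within Cyp6a13, Cyp6a14 and Cyp6a15Psi and -0.05 within Cyp4ad1, Cyp4e1 and Cyp4e2. Cyp28d1 and Cyp28d2 ran the other way, at -0.46. Cyp12d1-d and Cyp12d1-p are near-identical copies, whose reads the counting may have split, and their correlation of 0.996 cannot be read as 2 measurements.

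Many members rose with days after exposure, in control flies too. The family's share of all normalized counts in controls was 1.78% ± 0.257 at day 2 (SD, n = 3), 2.77% ± 0.248 at day 10 (n = 3) and 2.49% and 1.37% in the 2 libraries of day 20, the lower one being the library with few genes. At 20000 R it was 1.56% ± 0.336, 3.12% ± 0.400 and 3.03% ± 0.136 at days 2, 10 and 20 (SD, n = 3 each). Averaged over the 6 dose groups, 36 of 79 members rose at day 10 against day 2 and 0 fell, where 20.3% of all genes rose and 25.4% fell. At day 20 against day 2, 35 rose and 6 fell, where 20.6% of all genes rose and 30.3% fell. The median member changed by 0.56 at day 10 and 0.43 at day 20, against 0.04 and -0.04 over all genes. Without the 6 few-gene libraries the median member changed by 0.29 and 0.37, against -0.002 and -0.04 over all genes. Of the 0 that fell at day 10 by limma, edgeR also gave 0 and DESeq2 gave 2, and limma gave 5 without the 6 few-gene libraries; 45 members had an unadjusted p under 0.05 in either direction.

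Within the controls alone, 5 members rose and 0 fell at day 10 against day 2, where 1.74% of all genes rose and 1.02% fell; fitted without the few-gene libraries, none of which is among these 6 controls, 15 rose and 0 fell, where 3.94% of all genes rose and 2.32% fell. At day 20 against day 2, 5 members rose and 2 fell in controls, where 3.90% of all genes rose and 4.28% fell. Without the few-gene libraries the day 20 control is library a alone. The median member then changed by 0.31, against -0.07 over all genes.

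Cyp309a1 had the smallest p with days. In controls it stood at 547, 745 and 565 normalized counts at day 2, at 1878, 2575 and 2177 at day 10 and at 2186 and 2330.1 at day 20. At 20000 R it stood at 876, 1079 and 1139 at day 2, 2353, 2257 and 2945 at day 10 and 1956, 2616 and 2821 at day 20. No day 10 or day 20 library of either dose reached down to its day 2 range. Averaged over doses the change was 1.58 ± 0.11 at day 10 (adjusted p = 1.64e-15) and 1.74 ± 0.11 at day 20 (adjusted p = 1.08e-16), and in controls 1.84 ± 0.27 and 1.88 ± 0.30. Its neighbour Cyp309a2 rose by 1.40 in controls at day 10 (adjusted p = 1.48e-06), with 1060.0, 1101 and 1010.5 at day 10, against 422, 403 and 379 at day 2.

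Members with a known part in xenobiotic metabolism rose with days. Of 10 such members tested, 9 rose at day 10 and 9 at day 20 and 0 fell at either day, with median changes of 1.24 and 1.22, against 0.04 and -0.04 over all genes. Of all genes 20.3% rose and 25.4% fell at day 10, and 20.6% rose and 30.3% fell at day 20. The 9 include both of the near-identical copies Cyp12d1-d and Cyp12d1-p, which are not separate measurements; the list was assembled with earlier results of these data known, and Cyp6a21 was not analysed here. Cyp6g1 stood at 13248, 13837 and 12504 in controls at day 2, at 23264, 24902 and 23047 at day 10 and at 30026 and 23620.1 at day 20. Its rise was 0.86 ± 0.08 at day 10 and 1.03 ± 0.08 at day 20 over all doses, and in controls days 10 and 20 lay above day 2 but overlapped each other. Cyp6a2, inducible by phenobarbital, rose by 0.67 ± 0.12 at day 20 (adjusted p = 6.73e-06). Cyp6w1, reported in DDT-resistant flies, stood at 2925, 3561 and 2942 in controls at day 2, 9638, 8076 and 10722 at day 10 and 14164 and 3388 at day 20. The last value comes from the library with few genes and lies within the day 2 range. Over doses Cyp6w1 rose by 1.82 ± 0.37 at day 10, and by 1.31 without the few-gene libraries (adjusted p = 3.93e-11). Cyp6a8, inducible by phenobarbital and caffeine, rose by 2.50 ± 0.46 at day 10 and by 1.87 without those libraries (adjusted p = 1.19e-07). Cyp28d1, inducible by toxins, stood at 1762, 2035 and 1783 in controls at day 2 and 3555, 3895 and 3938 at day 10. In controls at day 20 it stood at 3982 and 1298. Over doses, with all libraries, Cyp28d1 rose by 1.38 ± 0.46 at day 10. In the few-gene libraries 10 R day 2 b and c it stood at 51.6 and 6.34, against 1378 in 10 R day 2 a. Cyp12d1-d, a mitochondrial-clan member inducible by DDT, rose by 1.72 ± 0.51 at day 10 and by 0.91 without the few-gene libraries. Cyp12a4, whose overexpression is known to confer resistance to lufenuron, rose by 1.34 ± 0.28 at day 20. It stood at 1738, 2621 and 1445 in controls at day 10, against 417, 333 and 571 at day 2, without overlap. Cyp6d5 rose by 0.86 ± 0.30 at day 10 and by 0.40 without the few-gene libraries. Cyp6d4 was the tested member of the list that was called at neither day.

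**Figure D3:**
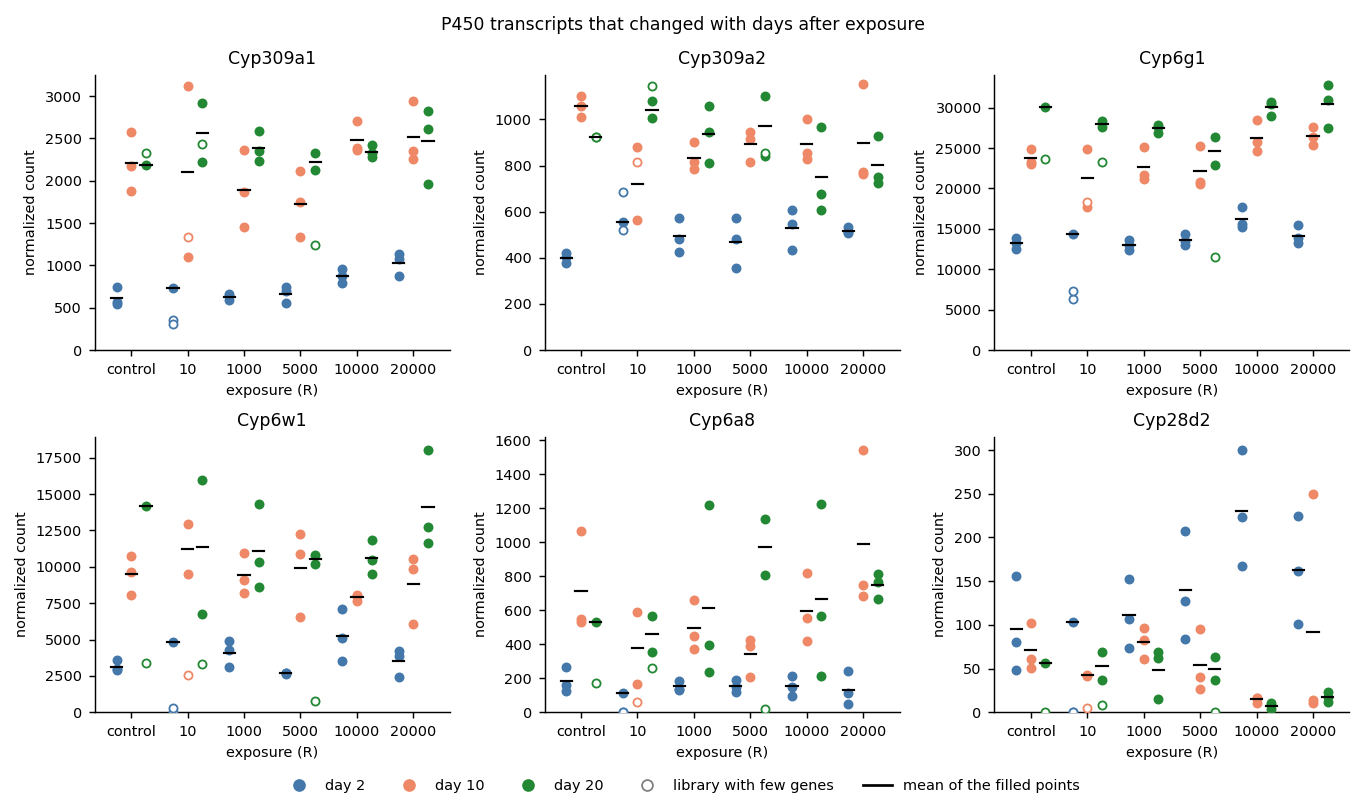
Normalized counts of 6 members by exposure (x axis, R) and day (colour), 1 point per library; hollow points are libraries with few genes and bars the mean of the filled points. Day 10 and day 20 points of Cyp309a1 and Cyp6g1 lie above the day 2 points at every exposure except in few-gene libraries, while Cyp28d2 at 10000 R lies at 4.34 to 16.7 on days 10 and 20, below its day 2 points of 167 to 300.2.

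Hormone-linked members and Cyp4g1 also moved with days. Cyp18a1, which inactivates ecdysone, rose by 0.52 ± 0.07 at day 20 (adjusted p = 6.58e-08). Cyp6t3, which is needed for ecdysone synthesis in larvae, rose by 1.09 ± 0.29 with the few-gene libraries kept. Cyp6g2, expressed in the corpora allata that make juvenile hormone, rose by 0.52 ± 0.08. All 3 hormone-linked members rose at both days, where 20.3% of all genes rose at day 10 and 20.6% at day 20. Cyp4g1 rose by 0.90 ± 0.22 at day 10 (adjusted p = 0.00095) and by 0.57 without the few-gene libraries. In controls Cyp4g1 stood at 284692, 385993 and 373854 at day 2, at 494787, 609970.0 and 552270.0 at day 10 and at 471954 and 261294 at day 20. Also linked to hydrocarbons or cuticle are Cyp4g15, Cyp301a1 and Cyp303a1. In controls of days 2, 10 and 20 the means per kb were 1004, 803 and 783 for Cyp4g15. They were 56.6, 44.5 and 34.4 for Cyp301a1 and 41.6, 41.7 and 19.1 for Cyp303a1. The day 20 means include the few-gene library control day 20 b. Cyp4s3, a CYP4 member, rose by 0.90 ± 0.07 at day 10, and Cyp9h1 by 1.60 ± 0.20 at day 20. Among the calls of smallest p at day 10 were Cyp4d20 (0.49 ± 0.06), Cyp6v1 (0.38 ± 0.05) and Cyp6a22 (0.74 ± 0.11), and at day 20 Cyp6a13 (0.66 ± 0.08). Beside these rises the summed fat body markers (6 of 8 in the table) stood at 41247 to 57306 in controls of days 10 and 20, against 13966 to 15585 in controls of day 2, with Fbp1 at 0 in 3 of those 5 later libraries. Of the 5 fat body markers tested, 3 rose and 1 fell at each of the later days over doses. The summed oenocyte markers (4 of 6 in the table) stood at 93355 to 112638 in controls of days 10 and 20, with eloF at 0 in 1 library, against 57727 to 64910 in controls of day 2, and 2 of 3 tested rose and 1 fell. Their part in the rise was not tested.

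Members that fell at day 20 were Cyp28d2 (-2.24 ± 0.56), Cyp310a1 (-1.16 ± 0.30), Cyp303a1, which is needed for sensory bristles (-0.97 ± 0.28), Cyp4ad1 (-0.85 ± 0.20), Cyp308a1 (-0.67 ± 0.24) and Cyp312a1 (-0.50 ± 0.18). These falls are averages over doses. Cyp312a1 is an example that controls share, with 3976, 4142 and 4047 normalized counts at day 2, 3354, 3351 and 3246 at day 10 and 2893 and 2415 at day 20. Cyp310a1 did not fall in controls, where its means were 41.9, 46.2 and 55.0 per kb at days 2, 10 and 20. The others named had lower control means at day 20 than at day 2, with control day 20 b included. The fall of Cyp308a1 was not called without the few-gene libraries (-0.51, adjusted p = 0.0516). The control calls of Cyp303a1 (-3.05 ± 0.75) and Cyp308a1 (-2.05 ± 0.63) rest on control day 20 b, which had 0 and 2.85 normalized counts, against 57.7 and 42.4 in control day 20 a.

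At 20000 R, averaged over the 3 days, 6 of 79 members rose and 1 fell, where 7.72% of all genes rose and 20.7% fell; the share of members that rose is close to that of all genes. On recovered reads edgeR gave 6 higher and 0 lower, and DESeq2 6 and 1. Without the 6 few-gene libraries 13 rose and 4 fell, where 11.8% of all genes rose and 24.9% fell. The median member changed by 0.35, against 0.08 over all genes, and by 0.18 without the few-gene libraries, against 0.05 over all genes. With quantile normalization, which moves the median of all genes to 0.27, 40 members rose and 0 fell. Of all genes 36.95% then rose and 18.62% fell at 20000 R. At 10000 R 3 members rose and 2 fell, where 6.42% of all genes rose and 21.2% fell; without the few-gene libraries 11 rose and 5 fell, where 12.3% of all genes rose and 25.7% fell. The median member changed by 0.29 at 10000 R, against 0.06 over all genes. Under quantile normalization, where the median of all genes was 0.26, 40 members rose and 1 fell. With that normalization 35.1% of all genes rose and 18.5% fell. At the same doses all 10 testis markers fell, with medians of -4.72 at 20000 R and -3.83 at 10000 R. Their summed level at days 10 and 20 was 636 to 1315 normalized counts at 20000 R and 1801 to 2749 at 10000 R, against 117159 to 141330 in controls. Their part in the changes of the members was not tested.

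At day 2, 0 of 79 members were called at 20000 R by limma, edgeR or DESeq2, with 2 at an unadjusted p under 0.05 by limma, where 0.160% of all genes were called. At 10000 R limma, edgeR and DESeq2 called 0 members at day 2, with 2 at an unadjusted p under 0.05 by limma, where 0.0962% of all genes were called. With all libraries, calls within single days came at days 10 and 20. At day 10, 5 members rose and 0 fell at 20000 R, where 2.72% of all genes rose and 18.7% fell, and 1 rose and 2 fell at 10000 R, where 2.21% rose and 19.9% fell. At day 20, 4 rose and 0 fell at 20000 R, where 5.60% of all genes rose and 16.9% fell, and 3 rose and 1 fell at 10000 R, where 4.44% rose and 16.7% fell. A test of whether the 10000 R response differed between days called 2 members, Cyp6a15Psi and Cyp303a1, where 14.1% of all genes were called. At 20000 R that test called 0 members, with 3 at an unadjusted p under 0.05, where 13.8% of all genes were called.

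**Figure D4:**
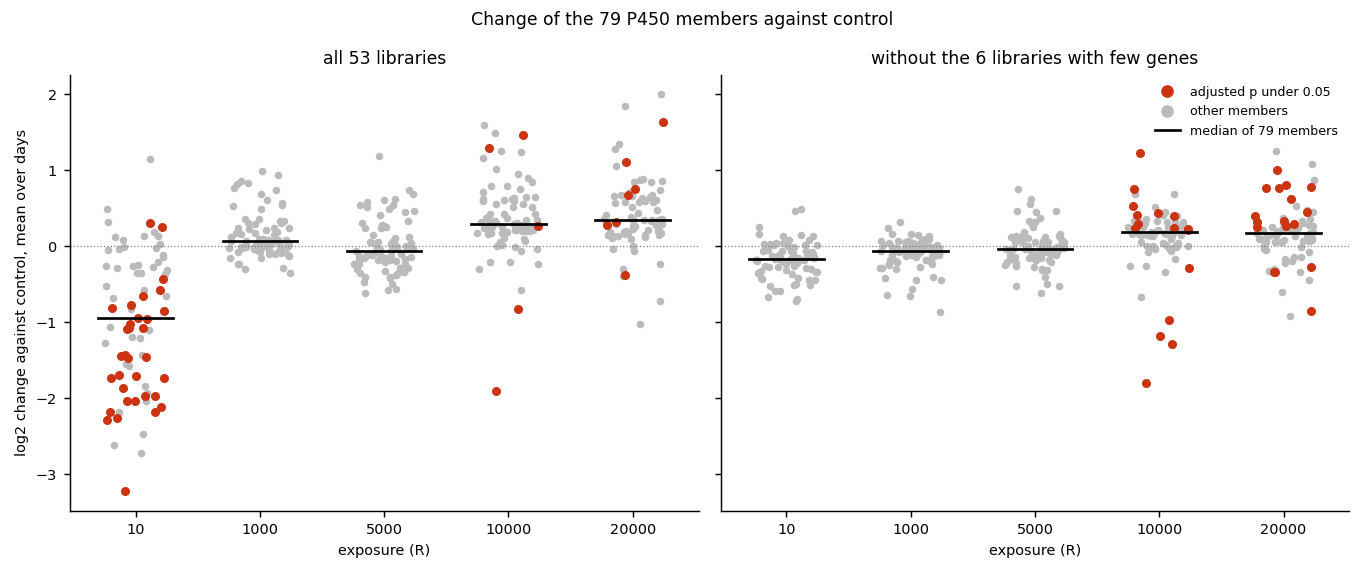
Change of each of the 79 members against control as the mean over days of log2(normalized count + 1) differences, by exposure in R, with all 53 libraries (left) and without the 6 libraries with few genes (right); red points have an adjusted p under 0.05 and bars are medians. With all libraries the 10 R median is -0.94, while without the few-gene libraries the medians are -0.16 at 10 R, -0.06 at 1000 R, -0.04 at 5000 R, 0.19 at 10000 R and 0.18 at 20000 R, with red points at 10000 R and 20000 R.

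Cyp6d2, a CYP3 member whose variants are known to alter sensitivity to the topoisomerase poison camptothecin, was higher at 20000 R on every day. At 20000 R it stood at 485, 688 and 592 normalized counts at day 10, against 202, 245 and 211 in controls. At day 20 it stood at 552, 649 and 630.2 at 20000 R, against 327 and 207 in controls, and at day 2 at 301, 401 and 224 against 182, 215 and 163. The 20000 R libraries lay above the control libraries at each of the 3 days. At 10000 R Cyp6d2 stood at 449.98, 361 and 352 at day 10 and 474, 433 and 496 at day 20, above controls on both days, and at day 2 at 244, 259 and 83.7, on both sides of the control range. The change at 20000 R over days was 1.11 ± 0.31 (adjusted p = 0.00525) and 1.00 without the few-gene libraries (adjusted p = 3.06e-05). At 10000 R it was 0.52 ± 0.31 (adjusted p = 0.237).

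Cyp6a16 rose by 0.75 ± 0.20 at 20000 R over days (adjusted p = 0.00336). Its levels were 407, 353 and 333 at 20000 R day 10, against 155, 155 and 175 in controls, and 271, 292 and 252 at 20000 R day 20, against 139 and 174 in controls. The groups did not overlap on these days, whereas at day 2 they did (179, 175 and 135 at 20000 R, against 145, 116 and 137 in controls). Cyp6v1, of the CYP3 clan, changed by a small amount with little spread. It stood at 998, 914 and 972 at 20000 R and 1012, 974 and 1342 at 10000 R on day 10, against 726, 762 and 726 in controls, without overlap. Its change over days was 0.29 ± 0.07 at 20000 R (adjusted p = 0.00262) and 0.26 ± 0.07 at 10000 R (adjusted p = 0.00565). The library at 1342 is 10000 R day 10 c, which is high in Yp1. Without it and the other 8 libraries that stand apart the change at 10000 R was 0.18 (adjusted p = 0.0254).

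Cyp301a1, a mitochondrial-clan P450 of cuticle formation, rose by 0.67 ± 0.24 at 20000 R over days (adjusted p = 0.0346). The 20000 R libraries of day 10 (228, 134 and 129.7) lay above the controls (45.4, 76.0 and 99.9). The value of 228 is that of 20000 R day 10 a, the library high in His1. In 12 of 18 groups the lowest value of Cyp301a1 was that of library a. Cyp304a1, of the CYP2 clan, had the largest fitted rise among the members called at 20000 R over days, and lost its call without the few-gene libraries. It stood at 46.5, 63.1 and 43.1 at 20000 R day 10, against 23.3, 32.03 and 5.87 in controls, and at 53.7, 55.9 and 33.1 at day 20, against 47.1 and 0.950. Its change over days was 1.64 ± 0.42 at 20000 R (adjusted p = 0.00193) and 1.46 ± 0.42 at 10000 R (adjusted p = 0.00614). Without the few-gene libraries, and thus without the control at 0.950, it was 0.87 (adjusted p = 0.052) and 0.69 (adjusted p = 0.128), and neither was called. Cyp6u1 (0.32 ± 0.11, adjusted p = 0.0256) was likewise not called without them (adjusted p = 0.359). Cyp305a1 fell at 20000 R by 0.38 (SE 0.12, adjusted p = 0.0187), with 905, 1266 and 1362 at 20000 R day 10, against 1479.6, 1645 and 1772 in controls, and 825, 1183 and 1179 at day 20, against 1504 and 1716. In all 18 groups the lowest value of Cyp305a1 was that of library a, the first column of the group, and the fit has no term for the place of a column. Its 20000 R range lay below that of controls at days 10 and 20 but not at day 2, and the call was lost under quantile normalization (-0.22, adjusted p = 0.155) and without the 9 libraries (adjusted p = 0.073).

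Members that fell at 10000 R did so at the later days. Cyp310a1 stood at 21.4, 0.780 and 27.6 normalized counts at 10000 R day 10, against 73.6, 67.7 and 63.4 in controls, and at 18.5, 5.79 and 5.89 at day 20, against 63.6 and 98.7. At day 2 it stood at 63.6, 48.3 and 84.7 at 10000 R, against 76.1, 54.9 and 54.7 in controls. The groups were apart at days 10 and 20 and overlapped at day 2. The change over days was -1.90 ± 0.44 (adjusted p = 0.000671), -2.73 ± 0.73 at day 10 and -3.05 ± 0.82 at day 20. At 20000 R, 2 of 3 libraries of day 10 and all 3 of day 20 were also below controls (91.9, 15.2 and 17.1 and 20.4, 20.7 and 29.7), and the mean change, -1.02 ± 0.44, was not called (adjusted p = 0.0789). The exception, 91.9, is 20000 R day 10 a, the library high in His1. Without the 9 libraries the change at 20000 R was -1.19 ± 0.37 (adjusted p = 0.00976).

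Cyp4ad1, of the CYP4 clan, was also below controls at the later days. It stood at 89.3, 127 and 89.8 at 10000 R day 10, against 231, 216 and 215 in controls, and at 93.8, 47.7 and 68.5 at day 20, against 216 and 119.6. At 20000 R it stood at 251, 77.2 and 89.1 at day 10 and 77.1, 77.8 and 62.3 at day 20, again with 20000 R day 10 a as the exception. The change over days was -0.82 ± 0.28 at 10000 R (adjusted p = 0.0252) and -0.72 ± 0.28 at 20000 R (adjusted p = 0.0554). Without the 9 libraries it was -1.03 ± 0.15 at 20000 R (adjusted p = 4.48e-07). Under quantile normalization neither change was called (-0.25 and -0.19). Cyp28d2 stood at 16.7, 16.4 and 10.9 at 10000 R day 10, below 102, 60.4 and 50.5 in controls. At 20000 R day 10 it stood at 249, 14.1 and 11.2, with 20000 R day 10 a again the exception. Over days it was not called at 10000 R with all libraries (-0.21, adjusted p = 0.882), and was called without the few-gene ones (-1.19, adjusted p = 0.0441).

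**Figure D5:**
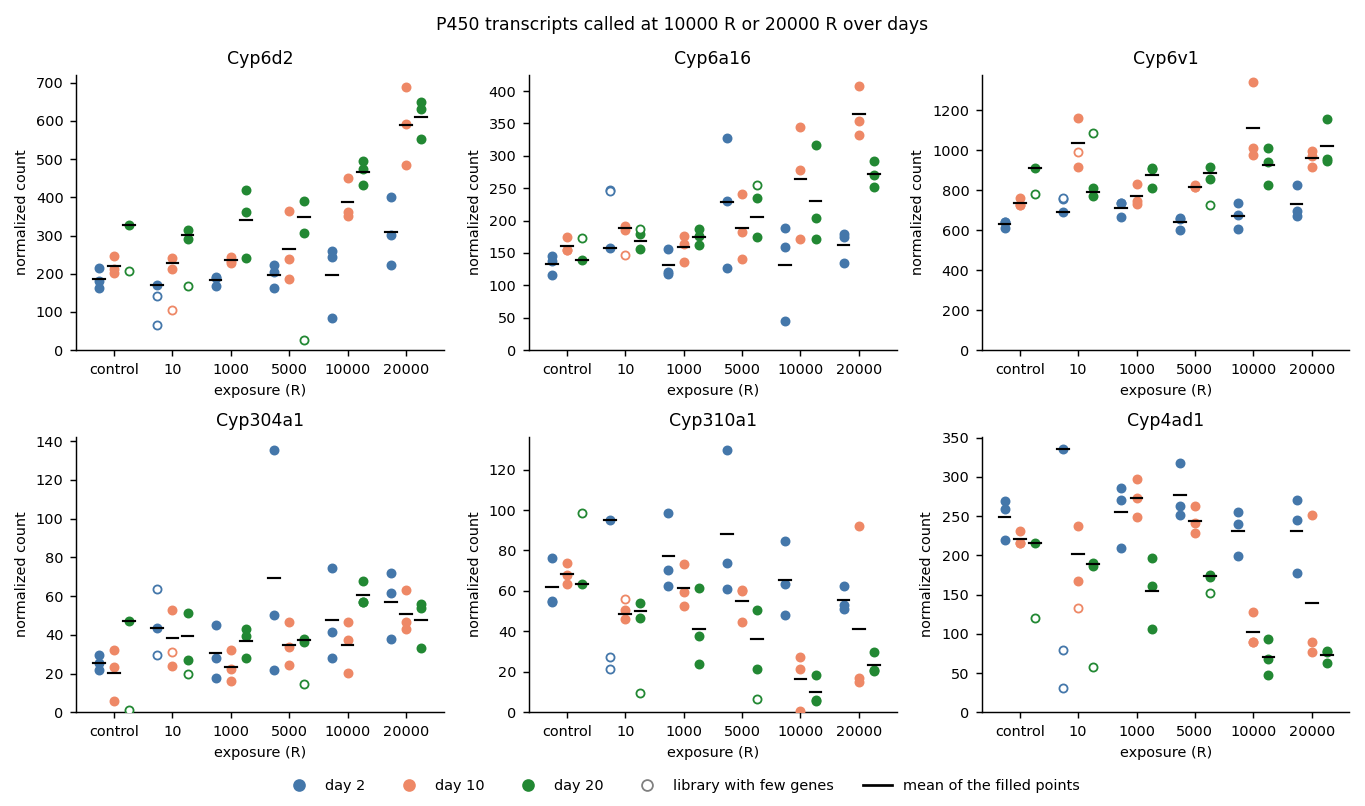
Normalized counts of 6 members by exposure (x axis, R) and day (colour), 1 point per library; hollow points are libraries with few genes and bars the mean of the filled points. Cyp6d2, Cyp6a16 and Cyp6v1 lie above controls at 20000 R on day 10, while Cyp310a1 and Cyp4ad1 lie below controls at 10000 R on days 10 and 20, and 1 day 10 point of 20000 R (91.9 and 251) lies with the controls.

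Cyp9f3 rose at 10000 R by 1.30 ± 0.35 over days (adjusted p = 0.00335), with library a, the first column, near control levels on each day and libraries b and c above them. It stood at 97.7, 293 and 311 at 10000 R day 2, against 63.9, 127 and 127 in controls, at 102, 301 and 333 at day 10, against 47.8, 104 and 143, and at 115, 358 and 327 at day 20, against 90.7 and 67.4. At 20000 R its libraries spanned 82.5 to 184, and the change of 0.59 ± 0.35 was not called (adjusted p = 0.22). Cyp6a15Psi, named as a pseudogene, changed at 10000 R day 10 by -3.43 ± 0.76 (adjusted p = 0.000462), with 1.19, 3.12 and 0 at 10000 R, against 33.1, 15.6 and 18.8 in controls. At day 20 it stood at 8.46, 9.40 and 24.3 at 10000 R and overlapped the controls. Over days it was not called (-0.58, adjusted p = 0.396).

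Calls of day 20 rest largely on 1 control library. At 20000 R they were Cyp303a1 (2.58 ± 0.75), Cyp304a1 (2.29 ± 0.77), Cyp308a1 (1.91 ± 0.63) and Cyp6u1 (0.68 ± 0.20), and at 10000 R Cyp303a1 (2.54 ± 0.75), Cyp304a1 (2.66 ± 0.77) and Cyp4d20 (0.47 ± 0.15), beside the fall of Cyp310a1. None of these 7 rises was called without the few-gene libraries. In control day 20 b, a few-gene library, Cyp303a1 stood at 0, Cyp304a1 at 0.950, Cyp308a1 at 2.85 and Cyp6u1 at 321 normalized counts, against 57.7, 47.1, 42.4 and 733 in control day 20 a. Without the few-gene libraries limma called 0 rises at day 20 at either dose, with 11 members at an unadjusted p under 0.05 at 20000 R and 9 at 10000 R, and 1 member fell at 20000 R and 3 at 10000 R. With all libraries edgeR called 1 rise at each dose, and DESeq2 1 at 20000 R and 2 at 10000 R. At day 10 at 20000 R the rises besides those described were Cyp6a14 (0.65 ± 0.24, adjusted p = 0.0476) and the day 10 values of Cyp6a16 (1.17 ± 0.34), Cyp6d2 (1.41 ± 0.52), Cyp301a1 (1.16 ± 0.41) and Cyp6v1 (0.38 ± 0.12).

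At 10 R, 31 of 79 members fell and 2 rose over days, where 9.81% of all genes fell and 3.74% rose, and the median member changed by -0.94, against -0.10 over all genes. At day 2 alone 52 members fell and 2 rose, where 32.03% of all genes fell and 15.43% rose (47.5% called in either direction). These calls rest on 4 of the 9 libraries of this dose, which have few genes. Cyp6d5, inducible by phenobarbital, shows the course: at 10 R day 2 it stood at 7848, 128 and 462 normalized counts, against 8723, 9278 and 7389 in controls. Cyp12d1-p, inducible by caffeine, stood at 780.2, 1.29 and 1.27, against 808, 866 and 651 in controls, and Cyp4g1 at 306628, 17269.6 and 39156, against 284692, 385993 and 373854. In each case library a lay within or near the control range and libraries b and c far below it. Without the few-gene libraries limma called 0 members at 10 R over days, with 3 at an unadjusted p under 0.05, and 0 at day 2, with 2 at an unadjusted p under 0.05, where 0% of all genes were called at day 2. The 10 R group then has 1 library at day 2 and 2 at each later day. On recovered reads of all libraries edgeR called 1 member over days, and DESeq2 8. A test of whether the 10 R response differed between days called 6 members, where 4.04% of all genes were called.

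Among the members that fell at 10 R over days with all libraries, the changes were largest for Cyp4e1 (-3.22 ± 1.06), Cyp12b2 (-2.28 ± 0.58), Cyp6a8 (-2.26 ± 0.67), Cyp6a9 (-2.19 ± 0.59) and Cyp12d1-d (-2.18 ± 0.75). The other falls lay between -2.12 for Cyp12d1-p and -0.43 for Cyp6g2. They included the CYP3 members Cyp6d4, Cyp6t1, Cyp6t3, Cyp6a23, Cyp9b1, Cyp9b2, Cyp9c1, Cyp9f2, Cyp9h1, Cyp28a5, Cyp28d1 and Cyp317a1. They also included the CYP4 members Cyp4g1, Cyp4d2, Cyp4d14, Cyp4aa1, Cyp312a1, Cyp313a4 and Cyp313b1, and Cyp12a5 of the mitochondrial clan. All 3 members linked to male behaviour or temperature choice fell at 10 R: Cyp4d21, a courtship gene (-2.03), Cyp6a20, a gene of male aggression (-1.69), and Cyp6a17, of temperature preference (-1.43). The libraries b and c carry these values: Cyp4d21 stood at 333, 6.45 and 0 at 10 R day 2, against 411, 293 and 319 in controls. Without the few-gene libraries the changes at 10 R were -0.58 for Cyp4e1, -0.36 for Cyp12b2, -0.28 for Cyp4d21 and -0.44 for Cyp6t3, none of them called. The 2 rises at 10 R were Cyp18a1 (0.30 ± 0.10) and Cyp6v1 (0.25 ± 0.07), which were not called without these libraries either. At day 2 Cyp309a2 rose by 0.54 ± 0.18, with 554, 519 and 685 at 10 R, against 422, 403 and 379 in controls. Libraries a, b and c all lay above the controls, but b and c have few genes. The rise was not called in a fit to the libraries of day 2 alone. Day 2 libraries of 1000 R (573, 482 and 424), 10000 R (608, 548 and 433) and 20000 R (532, 506 and 512) also lay above the controls. Those of 5000 R (482, 574 and 355) lay on both sides.

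At 1000 R, 0 of 79 members were called over days by limma, edgeR or DESeq2, with 3 at an unadjusted p under 0.05, where 0% of all genes were called; the median member changed by 0.07. At 5000 R, 0 were called by limma, edgeR or DESeq2, with 5 at an unadjusted p under 0.05, where 4.55% of all genes were called, and the median member changed by -0.07. 

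Neighbouring doses were also compared over days. Between 5000 R and 1000 R limma and edgeR called 0 members and DESeq2 1, with 3 at an unadjusted p under 0.05 by limma, where 6.37% of all genes were called. At 10000 R against 5000 R, 11 members were higher and 3 lower, where 14.5% of all genes were higher and 23.6% lower. With quantile normalization 40 members were higher and 1 lower, where 38.98% of all genes were higher and 19.17% lower. At 20000 R against 10000 R 0 members were called by limma, edgeR or DESeq2, with 4 at an unadjusted p under 0.05 by limma, where 1.51% of all genes were called. Members called between 10000 R and 5000 R included Cyp18a1 (0.52 ± 0.10, adjusted p = 4.37e-05), Cyp6a22 (0.65 ± 0.16), Cyp4ad1 (-0.94 ± 0.27) and Cyp310a1 (-1.29 ± 0.42). Cyp18a1 stood at 770.2, 634 and 801 at 10000 R day 10, against 458, 396 and 477 at 5000 R day 10, without overlap.

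By clan, 4 of 38 CYP3 members, all higher, and 0 of 28 CYP4 members were called at 20000 R over days. The other calls of the 7 were 2 of 4 CYP2 members (1 higher, 1 lower) and 1 of 9 mitochondrial members (higher). Of all genes 7.72% rose and 20.7% fell at 20000 R over days. Of the roles, 0 of 10 xenobiotic members were called at 20000 R over days, with a median of 0.35, and 0 of 3 hormone-linked members, with a median of 0.20. Of 4 hydrocarbon and cuticle members (Cyp4g1, Cyp4g15, Cyp301a1 and Cyp303a1) 1 was called, Cyp301a1, and of the 3 members linked to male behaviour or temperature choice 0 were called by limma. Without the few-gene libraries 1 of the 10 xenobiotic members rose at 20000 R, Cyp12a4 (0.78 ± 0.29, adjusted p = 0.0354). With days, 22 of 38 CYP3 members and 6 of 9 mitochondrial members rose at day 10. So did 7 of 28 CYP4 members and 1 of 4 CYP2 members, where 20.3% of all genes rose. The shares of the clans were not tested against each other.

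Genes that serve P450s were read beside the family. Among 5 electron donors tested, Fdx1, a ferredoxin, rose at 20000 R by 0.51 ± 0.18 (adjusted p = 0.0263) and at 5000 R by 0.72 ± 0.18, dare, the ferredoxin reductase, rose at 10000 R by 0.37 ± 0.14, and Cpr, the P450 reductase, fell at 5000 R by 0.29 (SE 0.08, adjusted p = 0.0236). At 20000 R and 5000 R 0 of the 5 were called without the few-gene libraries. With days 3 of the 5 rose and 0 fell, where 20.3% of all genes rose and 25.4% fell at day 10. At day 10 Cpr rose by 0.29 ± 0.05 and dare by 0.34 ± 0.10. Cyt-b5-r, a fusion of a cytochrome b5 domain and a desaturase domain, rose by 1.21 ± 0.28 at day 10.

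Of 8 genes of haem synthesis and breakdown tested, 4 fell at 20000 R over days and 0 rose, where 20.7% of all genes fell and 7.72% rose, and 3 fell and 0 rose at 10000 R, where 21.2% of all genes fell and 6.42% rose. With 8 genes, these counts are given as a description. Ppox, protoporphyrinogen oxidase, averaged 576 ± 151 normalized counts at 20000 R day 10, against 1478 ± 85.3 in controls (SD, n = 3 each), and changed by -0.74 ± 0.09 at 20000 R (adjusted p = 9.46e-09) and -0.70 ± 0.09 at 10000 R. Coprox, coproporphyrinogen oxidase, changed by -0.55 ± 0.11 at 20000 R, and Ho, haem oxygenase, by -0.41 ± 0.16. Uros2, listed here as a uroporphyrinogen synthase, changed by -4.24 ± 0.23, beside a median of -4.72 for the 10 testis markers at this dose. Without the few-gene libraries 3 fell and 1 rose at 20000 R. The part of the testis in the falls of this list was not tested.

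Of 9 xenobiotic and hormone sensors tested, ss, the fly relative of the aryl hydrocarbon receptor, rose at 20000 R by 0.45 ± 0.17 (adjusted p = 0.0476), and cnc, the relative of Nrf2, fell at 5000 R by 0.40 (SE 0.10, adjusted p = 0.0139). With days cnc rose by 0.56 ± 0.07 at day 20 and Keap1, its inhibitor, by 0.36 ± 0.14. Of 8 ecdysone-synthesis genes listed 2 were tested: sad rose at 20000 R by 1.68 ± 0.54 (adjusted p = 0.0147), with no call in the list without the few-gene libraries, and shd fell at day 20 by 0.90 (SE 0.28, adjusted p = 0.00684).

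The 5 matching genes under the minimum of 10 were Cyp6t2Psi (mean 6.52 normalized counts), Cyp313a3 (3.39), Cyp313a2 (2.90), Cyp316a1 (2.46) and Cyp313a5 (1.01). All 5 had their highest value in 20000 R day 10 a, the library high in His1: Cyp313a2 stood there at 139, against at most 3.66 in any other library, Cyp313a5 at 52.4, against at most 1.25, and Cyp316a1 at 49.4, against at most 9.07. Cyp6t2Psi stood there at 71.2 and Cyp313a3 at 57.3, against at most 40.9 and 13.4 elsewhere. Just above the minimum lay Cyp6a19, with 160.2, 14.1 and 16.5 at 20000 R day 10, against 6.13, 3.66 and 7.05 in controls.

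For Cyp304a1, the member of smallest p at 20000 R over days, the genes whose log2 levels were most like it over the 18 group means were CG33253 (Pearson r = 0.87), CG17190 (0.86), a gene listed without a symbol as FBgn0051728 (0.83), pio (0.82) and CG14854 (0.82). Computed without the few-gene libraries, the 5 were Obp99d (0.79), CG18622 (0.74), CG17361 (0.74), CG13868 (0.72) and CG4199 (0.72), so no gene was in both lists. The 18 group means share doses and days, and these values are descriptions.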

How the data were processed

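RNA of whole male flies was sequenced in 53 libraries. The authors deposited 1 table of normalized counts per gene, a signal on the scale of reads divided by 1 size factor per library. TopHat2 2.0, DESeq and the dm3 build are named in the submitters' processing notes; the counting program and annotation were not given in the sources used here. Whole reads were recovered from the steps of the values (100% of values whole within 0.1) for the count tests. Symbols, arms and coding lengths came from the BDGP6 annotation, not the authors' build, so no coordinates are given; 14346 of 15222 IDs had a symbol.

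limma 3.58.1 (R 4.3.3) was fitted to log2(value + 1) with 1 mean for each of 18 groups, over 12475 genes with a mean of at least 10, with trended variances, Benjamini-Hochberg adjustment and a threshold of 0.05. Alternatives were edgeR 4.0.16 (quasi-likelihood) and DESeq2 1.42.0 on recovered reads, pseudocounts of 0.5 and 5, no minimum, a minimum of 50, quantile normalization, the libraries of 1 day only, leaving out each library, and leaving out libraries with few genes (under 85% of the highest number above 0) or with Yp1 or summed His1 above 10 times the median. The procedure was tested on simulated data. Named members passed in a dose comparison over days, were among the 8 of smallest p per direction with days or the first 2 within a day or dose step, were among the 8 highest per kb, or were on a role list; Cyp4ac1, Cyp4ac2, Cyp4ac3, Cyp4c3, Cyp4p2, Cyp6a14, Cyp6a19 and Cyp12e1 were chosen after their values were seen. The members and lists were chosen with earlier results of these data known.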

Additional observations from a re-analysis of the deposited data

Results flagged for a closer look

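Members whose response to a dose differed between days, by limma's F test of the difference with adjustment over 12475 genes, were 6 at 10 R and 2 at 10000 R. At 10 R the adjusted p was 0.0374 for Cyp6a15Psi, 0.0374 for Cyp9b1, 0.0374 for Cyp6t3, 0.041 for Cyp12e1, 0.041 for Cyp6a9 and 0.041 for Cyp309a2. Cyp9b1 stood at 86.1, 0 and 2.54 normalized counts at 10 R day 2, against 158, 153 and 164 in controls, and at 169.8, 169 and 60.8 at 10 R day 20, against 161 and 56.0 in controls. Cyp6a9, Cyp6t3, Cyp12e1 and Cyp6a15Psi had the same course: at 10 R day 2 libraries b and c, which have few genes, stood between 0 and 3.87. Cyp309a2 ran the other way. It stood at 554, 519 and 685 at 10 R day 2, against 422, 403 and 379 in controls, and at 562, 882 and 817 at 10 R day 10, against 1060.0, 1101 and 1010.5 in controls.

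At 10000 R the adjusted p was 0.00211 for Cyp6a15Psi and 0.0421 for Cyp303a1. Cyp6a15Psi stood at 26.9, 18.3 and 20.9 at day 2 and 1.19, 3.12 and 0 at day 10 at 10000 R, against 20.7, 18.3 and 24.6 and 33.1, 15.6 and 18.8 in controls. The Cyp303a1 value rests on control day 20 b, at 0, against 57.7 in control day 20 a. The part of the libraries with few genes in these 8 tests was not tested.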

How the results depend on the processing

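No paired analysis was possible because the columns of the table carry no replicate numbers, which the labels give but the column names do not. No replicate block was therefore fitted, and the place of a column was not used in its stead. Cyp305a1, Cyp9f3 and Cyp301a1 were lowest in the first column in 18, 12 and 12 of 18 groups. Their calls were not tested against the place of a column. Counts of called members are of 79. Without the libraries with few genes the count was 0 at 10 R over days (33 with all), 16 at 10000 R (5 with all), 17 at 20000 R (7 with all), 14 at 20000 R day 10 (5 with all) and 1 at 20000 R day 20 (4 with all). Without the 9 libraries that stand apart it was 0, 22, 19, 15 and 2 in the same order, and 1 at 20000 R day 2 (0 with all). Quantile normalization gave 41 at 10000 R, 40 at 20000 R, 25 at 20000 R day 10 and 27 at 20000 R day 20. edgeR gave 1 at 10 R and 1 at 20000 R day 20, DESeq2 8 and 2, and the libraries of that day alone 2 at 20000 R day 20. The cause of these shifts was not tested.

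Leaving out 1 library at a time gave 0 to 58 calls at 10 R, 0 to 4 at 1000 R, 0 to 6 at 5000 R, 4 to 9 at 10000 R and 5 to 12 at 20000 R over days. It gave 0 to 0 at 20000 R day 2, 1 to 6 at day 10 and 0 to 11 at day 20. With days it gave 35 to 50 at day 10 and 35 to 51 at day 20. At 10 R the count was 0 without 10 R day 2 b or c, 10 R day 10 c, 10 R day 20 c, control day 2 b or c, or control day 10 b or c, 18, 17 and 9 without control day 2 a, control day 10 a and control day 20 a, and 58 without 10 R day 2 a. Without control day 20 a it was 4 at 1000 R, 6 at 5000 R, 8 at 10000 R and 11 at 20000 R day 20. Without 10 R day 2 a it was 1 at 5000 R, 9 at 10000 R, 12 at 20000 R and 8 at 20000 R day 20, and at 5000 R it was 1 without 10 R day 2 b, 5000 R day 2 a or 5000 R day 20 a. At 20000 R day 20, leaving out library b of the control gave 0 and library b of 20000 R gave 2. At 20000 R day 10 it was 1 without control day 10 a, 2 without control day 10 c or 20000 R day 10 a, and 3 without any of 13 others.

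The sign turned in 6 named results of 5 members. Cyp303a1 changed by -0.40 at 10000 R day 20 and -0.36 at 20000 R day 20 without the few-gene libraries, the 9 libraries or control day 20 b, and by 5.48 and 5.52 when control day 20 a was left out instead. Cyp18a1 at 10 R day 2 changed by -0.0626 without the few-gene or the 9 libraries. Without the 9 libraries Cyp12d1-d changed by 0.0046 and Cyp317a1 by 0.0248 at 10 R over days, and Cyp308a1 changed by 0.19 at day 20 over doses with quantile normalization. Of 88 named calls, 40 kept direction and threshold without the few-gene libraries, 49 with edgeR, 60 with DESeq2 and 68 with quantile normalization. Depth of 15.4 to 46.2 M reads and 2 to 3 libraries per group limit what low members can show.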

Other observations

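Some members separate the libraries by their place in the table. Libraries are called a, b and c by column, and the table gives no replicate numbers, so nothing was tested on this order. Cyp305a1 and Cyp4g15 were lowest in library a, the first column, in 18 of 18 groups, and Cyp311a1 in 17. Cyp4g15 stood at 1338, 1882 and 1685 normalized counts at 20000 R day 10 and at 740.3, 1508 and 1719 at 10 R day 10, against 1237, 1416 and 1496 in controls, each time with library a lowest. Library a was highest for Cyp4ac1 and Cyp4p2 in 16 groups and for Cyp28d2 and Cyp4e2 in 15. Over the 79 members the median number of groups in which library a was lowest was 4, and in which it was highest 8.

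The library 20000 R day 10 a departed from libraries b and c of its group in several members: Cyp6a2 stood at 1425 there, against 3657 and 3672, and Cyp28d2 at 249, against 14.1 and 11.2.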
